A study of Mus musculus with 12 samples.

Results

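The genes described here are 39 interferon-stimulated genes of the mouse heart. They were taken by symbol from a given list of names, which was chosen with earlier results of these data known. A share of all genes tested given beside a count is thus a reference and not an independent test. The deposited table of 24918 genes held all 39. All 39 also passed the filter on low values, as did 14721 genes in all. The list holds transcription factors of the interferon pathway (Irf1, Irf7, Irf9, Stat2) and 35 sensors and effectors.

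Interferons are secreted proteins that cells release when they sense viral or displaced nucleic acid. Type I interferons bind the receptor chains IFNAR1 and IFNAR2, the Janus kinases JAK1 and TYK2 then phosphorylate STAT proteins such as STAT2, and these join IRF9 in the complex ISGF3. ISGF3 binds the interferon-stimulated response element (ISRE) in promoters, whereas interferon gamma acts on the gamma-activated site (GAS). Hearts without infection also express many of these genes at a low, tonic level.

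Whole hearts of C57BL/6 mice of both sexes, 2 months old and untreated, gave 12 RNA-seq libraries in 4 groups of 3. The floxed groups are homozygous for a glucocorticoid receptor gene (Nr3c1) flanked by loxP sites, written GRloxP,loxP in the titles. The groups called cardioGRKO carry the same floxed alleles and 1 αMHC-Cre transgene (αMHCCre/+), in which the cardiac myosin promoter drives Cre recombinase in cardiomyocytes. Both groups therefore share the floxed alleles, and by the titles only cardioGRKO mice carry Cre, so that an effect of Cre and of the deletion cannot be told apart. Other cell types of the heart keep the receptor. All 12 libraries carry the genotype entry wild-type, and the groups were taken from the titles. Whether the 3 libraries of a group come from 3 animals is not stated in the labels, and the p-values then measure the spread between libraries alone, part or all of which may be technical.

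All levels below are the authors' normalized log2 values, and sequencing depth cannot be read from them. Of 15 cardiomyocyte markers 15 were tested, and their summed level, led by Myh6, ranged from 2767956 to 3037841 on the linear scale, so the libraries hold heart muscle as labelled. The targeted gene Nr3c1 was 11.40, 11.42 and 11.42 in the male floxed libraries and 10.83, 10.85 and 10.88 in the male cardioGRKO libraries. Under the female floxed label it was 10.74, 10.71 and 10.78, and under the female cardioGRKO label 10.90, 10.90 and 10.85. Nr3c1 was thus lower under the cardioGRKO label in males (-0.56, SE 0.024, limma adjusted p = 2.4e-11) and higher under it in females (0.14, SE 0.024, adjusted p = 0.00038). An exact permutation test (two-sided) returned p = 0.1 in each sex, the smallest possible with 3 against 3. The female direction goes against the labels, and every female direction below is that of the libraries as labelled. In 2 of the libraries labelled female floxed (1 and 2) the corneal keratin Krt12 stood at 13.13 and 13.98, against 7.16 to 8.49 in the other libraries.

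In male hearts the interferon-stimulated genes were lower in cardioGRKO than in floxed libraries almost throughout the list. With limma's moderated test on the whole table and Benjamini-Hochberg adjustment over all genes tested, an adjusted p under 0.05 being a call, 34 of 39 members fell and 0 rose. Of all genes tested 14.6% were called lower and 12.8% higher. The median difference of the members was -0.20 on the log2 scale, against -0.0021 for all genes tested, and single members ranged from -0.67 to 0.033. In 36 of 39 members all 3 cardioGRKO libraries lay below all 3 floxed libraries, which held for 22% of all genes tested. When a change of more than 1.2-fold was required by the test, the falls of Iigp1, Oas2 and Irf7 alone were called among the members. The share of all genes called with this requirement is not given, here or below, and counts by value are another measure. By value, without a test, 8 members and 222 of the 14721 genes tested were lower by more than 1.2-fold, and 0 and 263 were higher. In whole-heart RNA, fewer cells that express a gene and less RNA per cell cannot be told apart.

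**Figure D1:**
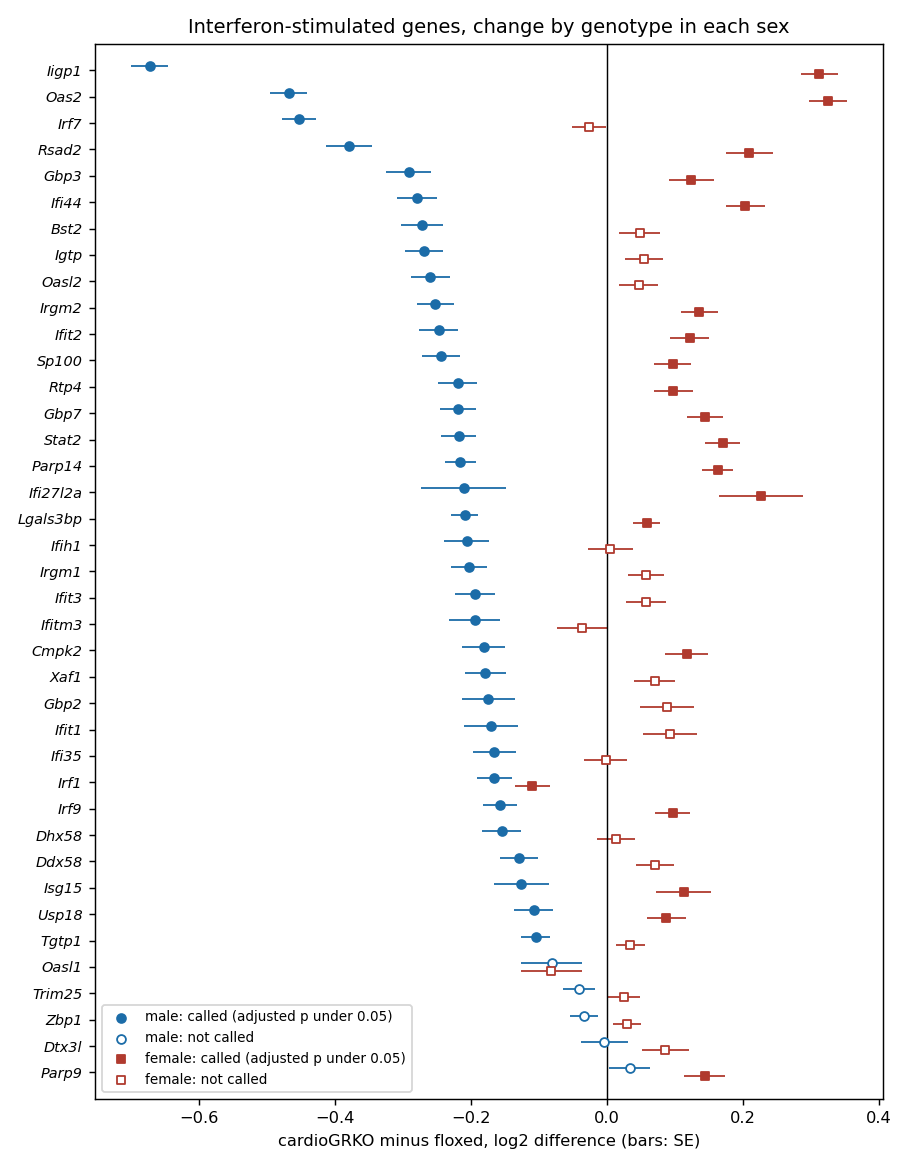
Log2 difference, cardioGRKO minus floxed, of each of the 39 genes (rows, ordered by the male value) in males (circles) and in females as labelled (squares), with SE bars; filled symbols passed an adjusted p of 0.05. The male values lie left of 0 for 38 of the 39 genes, and the female values lie right of 0 for 34.

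The 4 transcription factors among the members all fell in males, as did 14.6% of all genes tested. Irf7, which amplifies type I interferon production, was 9.91, 9.89 and 9.88 in floxed and 9.45, 9.44 and 9.44 in cardioGRKO libraries. The 2 groups lay far apart for the spread within them, and the difference was -0.45 (SE 0.025, limma adjusted p = 6.3e-10), which leaves 73.1% of the floxed level. Stat2, the STAT that is specific to type I and III interferon signalling, was 10.75, 10.81 and 10.73 in floxed and 10.57, 10.54 and 10.53 in cardioGRKO libraries. Its difference of -0.22 (SE 0.026, adjusted p = 5.2e-06) left 86.0% of the floxed level. Irf9, the DNA-binding partner of the STATs in ISGF3, went from 10.32, 10.33 and 10.27 to 10.20, 10.14 and 10.12, again without overlap (-0.16, adjusted p = 0.00015). Irf1, a factor induced by interferon gamma and inflammatory cytokines, went from 10.26, 10.28 and 10.22 to 10.08, 10.05 and 10.13 (-0.17, adjusted p = 0.00012).

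Stretches of promoter are shown for the 2 short DNA elements introduced above, the ISRE and the GAS. They were picked for holding the letters of an element before the start: the 4 members with the largest male falls among those with ISRE letters, and the 2 with the largest among those with GAS letters alone. Of the members with larger falls than Rsad2, Iigp1 and Oas2 had no window, and the window of Irf7 held none of the letters. The sequences are those of RefSeq on build GRCm38.p6, which is not the build of the authors' alignment (mm9). They give the strand of the gene, 5′ to 3′, and end before the transcription start. Of the 39 members 30 had a promoter window (250 bases before the start to 50 after it). In the first 4 sequences the capitals mark the ISRE letters, searched on both strands as GAAA, any 2 bases and GAAA, with overlapping matches joined. In the last 2, from members without these letters, they mark the GAS letters, which are TTC, any 3 bases and GAA.
Rsad2 (chr12:26456538-26456597, minus strand): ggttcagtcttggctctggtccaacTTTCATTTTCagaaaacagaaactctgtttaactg
Gbp3 (chr3:142559974-142560033, plus strand): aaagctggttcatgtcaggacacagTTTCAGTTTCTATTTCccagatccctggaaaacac
Bst2 (chr8:71537568-71537627, minus strand): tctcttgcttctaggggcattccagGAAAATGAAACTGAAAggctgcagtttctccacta
Igtp (chr11:58199497-58199555, plus strand): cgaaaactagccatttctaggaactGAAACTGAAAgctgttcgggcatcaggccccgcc
Ifit2 (chr19:34550444-34550486, plus strand): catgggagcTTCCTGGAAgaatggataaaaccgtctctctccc
Irf1 (chr11:53769899-53769957, plus strand): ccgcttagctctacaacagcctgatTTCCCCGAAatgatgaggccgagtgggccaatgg

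The ISRE letters stood in the window of 16 of the 30 members (53.3%), against 3.81% of 11555 tested genes with a window. The GAS letters stood in 9 of the 30 (30%), against 8.3% of these genes. The letters of a full palindromic glucocorticoid response element, AGAACA, any 3 bases and TGTTCT, stood in 0 of the 30 and in 1 of the 11555. All 16 members with the ISRE letters fell in males, with a median of -0.20. Of the 14 members without them 11 fell, with a median of -0.18. Of all genes tested 14.6% were called lower in males. Whether members with and without the letters differ was not tested, and falls among other genes with the letters were not counted. In Gbp3 and Bst2, 2 matches overlap, and in Bst2 the GAS letters also overlap the first ISRE match. Matches are descriptions of these windows and were not tested for binding.

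The GTPases that act on intracellular pathogens held the largest single fall. Iigp1, an immunity-related GTPase, was 11.41, 11.36 and 11.44 in male floxed libraries and 10.73, 10.74 and 10.72 in male cardioGRKO libraries, at 62.8% of the floxed level (-0.67, SE 0.027, limma adjusted p = 1.3e-11). Of the 5 immunity-related GTPases 5 fell. Igtp (Irgm3), a regulator of the other members of the family, went from 9.53, 9.50 and 9.54 to 9.25, 9.22 and 9.29 (-0.27, adjusted p = 1.5e-06), and its direct neighbour in the genome, Irgm2, fell by 0.25. Irgm1 fell by 0.20 and Tgtp1 by 0.10, the latter with reads that may be shared with its near-identical copy Tgtp2. The 3 guanylate-binding proteins among the members fell as well. Gbp3 was 9.93, 9.99 and 9.98 in floxed and 9.68 in each of the 3 cardioGRKO libraries, a difference of -0.29 (adjusted p = 3.4e-06), and Gbp7 and Gbp2 fell by 0.22 and 0.17.

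Effectors against viral RNA and replication made up the next group. Oas2, which makes the activator of the ribonuclease RNase L, was 10.07, 9.98 and 10.03 in male floxed libraries and 9.55, 9.52 and 9.59 in male cardioGRKO libraries. This left 72.3% of the floxed level, without overlap of the groups (-0.47, SE 0.028, limma adjusted p = 1.5e-09). Rsad2, which encodes the antiviral enzyme viperin, went from 10.35, 10.37 and 10.35 to 10.004, 9.99 and 9.94 (-0.38, adjusted p = 2.6e-07). Cmpk2, a nucleotide kinase that lies next to Rsad2 in the genome with 0 protein-coding genes between them, fell by 0.18. The 3 IFIT proteins bind viral RNA, and their genes Ifit2, Ifit3 and Ifit1 fell by 0.25, 0.19 and 0.17. Of the neighbours Oasl2 and Oasl1, relatives of the OAS enzymes, Oasl2 fell by 0.26, and Oasl1 changed by -0.081 without a call (adjusted p = 0.20).

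The 3 sensors of double-stranded RNA among the members fell, as did 14.6% of all genes tested. Ifih1, which encodes MDA5, fell by 0.21, Dhx58 (LGP2) by 0.15 and Ddx58 (RIG-I) by 0.13. Trim25, the ubiquitin ligase that acts on RIG-I, was at -0.041 and not called (adjusted p = 0.24). Isg15 is a ubiquitin-like protein that is attached to targets, and Usp18 removes it and also blocks the type I receptor. Isg15 was 8.24, 8.21 and 8.17 in floxed and 8.11, 8.05 and 8.08 in cardioGRKO libraries (-0.13, SE 0.040, limma adjusted p = 0.028), and Usp18 was 8.13, 8.11 and 8.15 against 7.99, 8.07 and 7.998 (-0.11, adjusted p = 0.0080). Neither overlapped between the groups. The call for Isg15 was lost without male floxed 1 or 2 or male cardioGRKO 2 or 3 (adjusted p = 0.10, 0.068, 0.10 and 0.065).

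The membrane proteins and the remaining effectors followed. Bst2, or tetherin, which holds budding virus at the cell surface, was 10.47, 10.56 and 10.52 in male floxed libraries and 10.23, 10.27 and 10.23 in male cardioGRKO libraries (-0.27, limma adjusted p = 2.8e-06). Ifitm3, which blocks fusion of virus with endosomes, fell by 0.19. Ifi44, an interferon-induced cytoplasmic protein, went from 8.44, 8.45 and 8.40 to 8.12, 8.17 and 8.17 (-0.28, adjusted p = 1.2e-06). Sp100, a nuclear body protein, fell by 0.24, Rtp4 by 0.22, Ifi27l2a and Lgals3bp by 0.21 each, Xaf1 by 0.18 and Ifi35 by 0.17. Zbp1, a sensor of left-handed nucleic acid that starts necroptosis, stood at -0.034 without a call. For Ifi27l2a, whose SD of 0.119 was the highest of the 39 in male floxed libraries, the call was lost in 2 of the 6 fits that leave out 1 library.

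One gene cluster split. Parp14, Dtx3l and Parp9 stand side by side with 0 protein-coding genes between neighbours, and encode ADP-ribosyltransferases and the ubiquitin ligase that partners PARP9. Parp14 fell by 0.22, from 10.54, 10.56 and 10.54 to 10.31, 10.35 and 10.35 (limma adjusted p = 1.5e-06). Dtx3l was 9.62, 9.60 and 9.56 in male floxed and 9.54, 9.61 and 9.61 in male cardioGRKO libraries, which overlapped (-0.0038, adjusted p = 0.96). Parp9 was 9.90, 9.98 and 9.97 against 10.03, 9.93 and 9.99 (0.033, adjusted p = 0.47), the only member with a positive male value. The RefSeq models of Dtx3l and Parp9 overlap, and whether strand was used in counting is not given in the sources used here, so reads in the overlap cannot be told apart. The same holds for Stat2 and Apof, Rtp4 and Masp1, Ifi27l2a and Ifi27, and Ifit1 and Ifit1bl1.

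Female hearts, as labelled, gave the opposite direction for part of the list. In the libraries labelled cardioGRKO 19 of 39 members were higher and 1 was lower than in those labelled floxed, and 19 were not called. Of all genes tested 15.2% were called higher and 14% lower. The members' median was 0.087, against -0.00037 for all genes tested, and single members ranged from -0.11 to 0.33. In 23 members the 3 libraries labelled cardioGRKO all lay above the 3 labelled floxed, against 21.6% of all genes tested. Without the 2 libraries labelled female floxed that hold Krt12, which leaves 1 library on that side, 12 members were called higher, 0 were called lower and the median was 0.099. In that fit 10.1% of all genes tested were called higher and 8.48% lower, and the lone library is assumed to vary like those of the other groups. When more than 1.2-fold was required, 0 of the 39 were called. Untested values past 1.2-fold were higher in 2 members and 136 of the 14721 genes tested, and lower in 0 and 267.

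Oas2 and Iigp1 had the largest female rises. Oas2 was 9.57, 9.54 and 9.53 in libraries labelled female floxed, against 9.86, 9.86 and 9.89 under the cardioGRKO label (0.33, SE 0.028, limma adjusted p = 2.1e-07). Iigp1 was 10.33, 10.32 and 10.42 against 10.66, 10.68 and 10.67, a rise to 124% (0.31, adjusted p = 3.0e-07). In both genes the groups did not overlap. Rsad2 went from 9.79, 9.84 and 9.86 to 9.99, 9.99 and 10.13 (0.21, adjusted p = 0.00023), and Ifi44 from 8.14, 8.11 and 8.16 to 8.39, 8.32 and 8.32 (0.20, adjusted p = 5.5e-05). Parp14 was 10.26, 10.29 and 10.27 against 10.40, 10.46 and 10.45 (0.16, adjusted p = 4.8e-05). Gbp7 was 9.86, 9.85 and 9.88 against 10.01, 10.04 and 9.97, and Parp9 9.87, 9.87 and 9.87 against 9.97, 10.03 and 10.04, with a difference of 0.14 for each.

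The transcription factors did not move together in females. Stat2 rose, from 10.53, 10.52 and 10.53 to 10.68, 10.68 and 10.74 (0.17, SE 0.026, limma adjusted p = 0.00010), and so did Irf9, from 10.18, 10.21 and 10.19 to 10.29, 10.27 and 10.30 (0.097, adjusted p = 0.0089). Irf7 was 9.63, 9.66 and 9.58 in libraries labelled floxed and 9.61, 9.60 and 9.58 in those labelled cardioGRKO, which overlapped (-0.026, adjusted p = 0.48). Irf1 was the 1 member that fell in both sexes as labelled. With the female labels exchanged it would be the 1 member that fell in males and rose in females. It was 10.11, 10.14 and 10.10 in libraries labelled female floxed and 10.0001, 9.99 and 10.03 in those labelled female cardioGRKO (-0.11, adjusted p = 0.0045). A fall in both sexes was called for 1.69% of all genes tested. Without the 2 libraries that hold Krt12 the Irf9 and Irf1 differences were 0.099 and -0.094, with SEs of 0.040 in place of 0.025 and 0.026, and were not called (adjusted p = 0.079 and 0.10).

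The modifier Isg15 was 8.02, 8.13 and 8.03 under the female floxed label, against 8.07, 8.23 and 8.22 under the female cardioGRKO label. These overlapped, and the rise of 0.11 only just passed (limma adjusted p = 0.046). Usp18 was 7.94, 7.93 and 7.91 against 8.01, 7.99 and 8.04 (0.087, adjusted p = 0.028). For both genes 4 of the 6 fits that leave out 1 library lost the call. These were female floxed 1 and 3 and female cardioGRKO 2 and 3 for Isg15, at adjusted p between 0.092 and 0.19, and female floxed 2 and 3 and female cardioGRKO 1 and 3 for Usp18, at 0.057 to 0.0997. Without the 2 libraries that hold Krt12 the rise of Usp18 was 0.10 (SE 0.045) and was not called (adjusted p = 0.10).

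**Figure D2:**
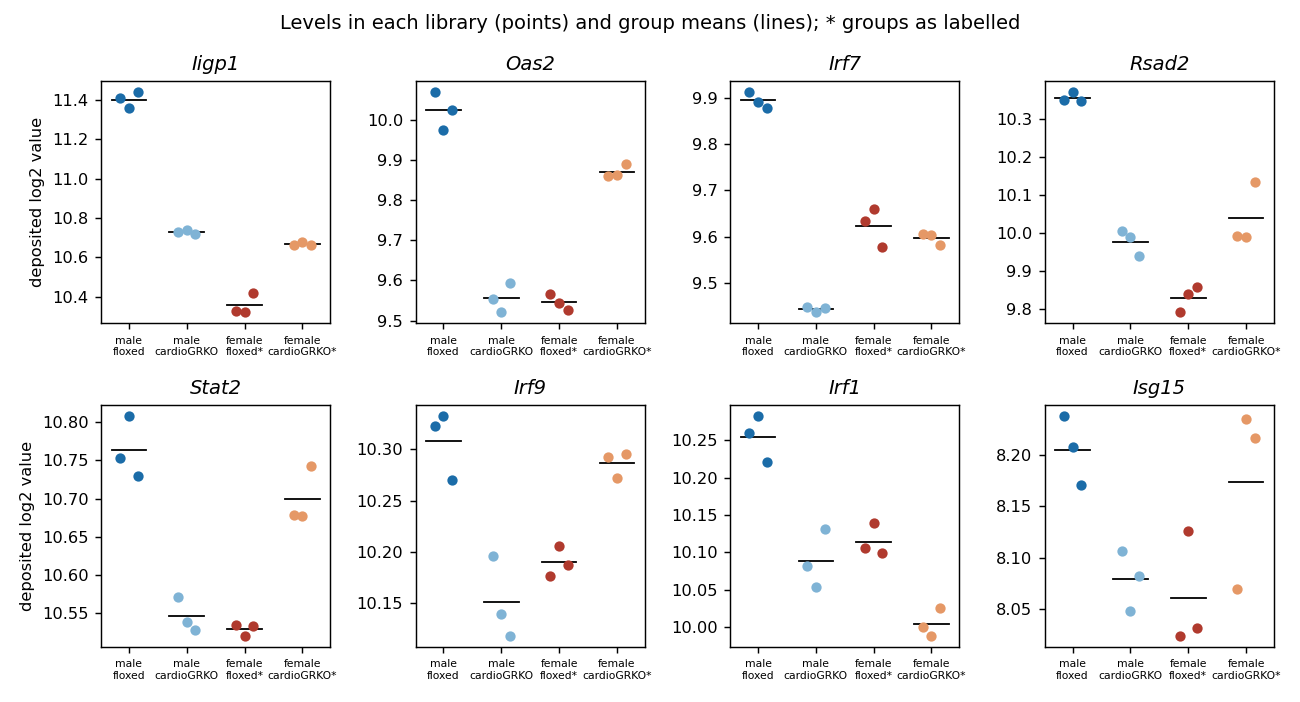
Deposited log2 values (vertical axes, each with its own range) of 8 members with 1 point per library, ordered by replicate within each group, and a line at each group mean; groups with an asterisk are named as labelled. Iigp1 is near 11.4 in male floxed and at 10.3 to 10.7 in the other libraries, whereas Irf1 is lower in the cardioGRKO libraries of both sexes.

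The difference between the male and the female change was tested directly. It was lower in males for 33 of 39 members and higher for 0, with a median of -0.26, against 17% and 14.3% of all genes tested and a median of -0.0019. The largest differences were those of Iigp1 (-0.98, SE 0.039, limma adjusted p = 7.8e-12), Oas2 (-0.79, adjusted p = 1.4e-10), Rsad2 (-0.59, adjusted p = 8.1e-08) and Ifi44 (-0.48, adjusted p = 1.0e-07). These values rest on the female labels, which Nr3c1 goes against. With the 2 female labels exchanged, an alternative added after seeing the data, the difference was called lower in males for 20 members and higher for 1 (Parp9), against 12.4% and 12.2% of all genes tested, with a median of -0.12. Iigp1 was then at -0.36, Oas2 at -0.14, Rsad2 at -0.17 and Ifi44, no longer called, at -0.076, and Irf7 had the largest difference (-0.48). As labelled, the male and the female change of Irf1 were not called different (-0.055, SE 0.037, adjusted p = 0.28). Male and female libraries are separate, and 18 members fell in males and rose in females, a pattern of 4.92% of all genes tested. With the female labels exchanged the same 18 members, and the same 4.92% of genes, would be called lower in both sexes. These 18 included Iigp1, Oas2, Rsad2, Gbp3, Gbp7, Stat2, Irf9, Isg15 and Usp18. Another 15 members fell in males without a female call, a pattern of 8.02% of all genes tested. Among these 15 were Irf7, Bst2, Igtp and the 3 RNA sensors Ifih1, Ddx58 and Dhx58. Dtx3l, Oasl1, Trim25 and Zbp1 were called in neither sex, as were 55.8% of all genes tested. With more than 1.2-fold required, 6 members kept a called difference between the sexes as labelled, namely Iigp1, Oas2, Rsad2, Ifi44, Irf7 and Parp14. No share of all genes by the same requirement is given beside these 6. Judged by value alone, 20 members and 576 of the 14721 genes tested were lower by more than 1.2-fold, and 0 and 614 were higher.

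The levels of the 4 groups show where these opposite changes stand. In 35 of 39 members male floxed was the highest of the 4 group means, which held for 28.6% of all genes tested. In 24 of 39 the group labelled female floxed was the lowest, against 29.1% of all genes tested, and in 14 male cardioGRKO was, against 22.8%. Between the floxed groups, which share their libraries with the contrasts above, 35 members were lower under the female label and 0 higher, against 22.7% and 21.5% of all genes tested, with a median of -0.22. The largest of these differences were in Iigp1 (-1.05, limma adjusted p = 2.2e-14), Rsad2 (-0.53, adjusted p = 2.4e-09), Oas2 (-0.48, adjusted p = 5.6e-10) and Gbp3 (-0.41, adjusted p = 3.4e-08). With more than 1.2-fold required, 5 members were called, the 4 above and Irgm2. Values past 1.2-fold, without a test, were lower in 14 members and 495 of the 14721 genes tested, and higher in 0 and 435. The libraries of the 2 floxed groups did not overlap in 34 members, all lower under the female label, against 26.1% of all genes tested.

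The cardioGRKO groups of the 2 sexes were closer. The group labelled female cardioGRKO was higher in 13 members and lower in 1, against 11.9% and 12.4% of all genes tested, and 25 members were not called, with a median of 0.058. The libraries of these groups lay apart in 17 members that were higher and 2 that were lower under the female label, against 20.3% and 19.8% of all genes tested. Oas2 was higher there by 0.32 (limma adjusted p = 3.4e-07), Irf7 and Stat2 by 0.15 each, and Irf1 was lower by 0.084. With more than 1.2-fold required, 0 calls were left. Without a test, 2 members and 103 of the 14721 genes tested were higher by more than 1.2-fold, and 0 and 177 were lower. For Gbp3, Igtp and Usp18 the cardioGRKO groups overlapped and differed by 0.0039, 0.0099 and -0.0078. In each library the median deviation of the 39 members from their own means over all libraries was taken as a summary. It was 0.13, 0.14 and 0.13 in male floxed, -0.049, -0.065 and -0.056 in male cardioGRKO, -0.079, -0.079 and -0.098 in female floxed and -0.0091, -0.010 and 0.012 in female cardioGRKO libraries as labelled. The 4 groups did not overlap in it.

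**Figure D3:**
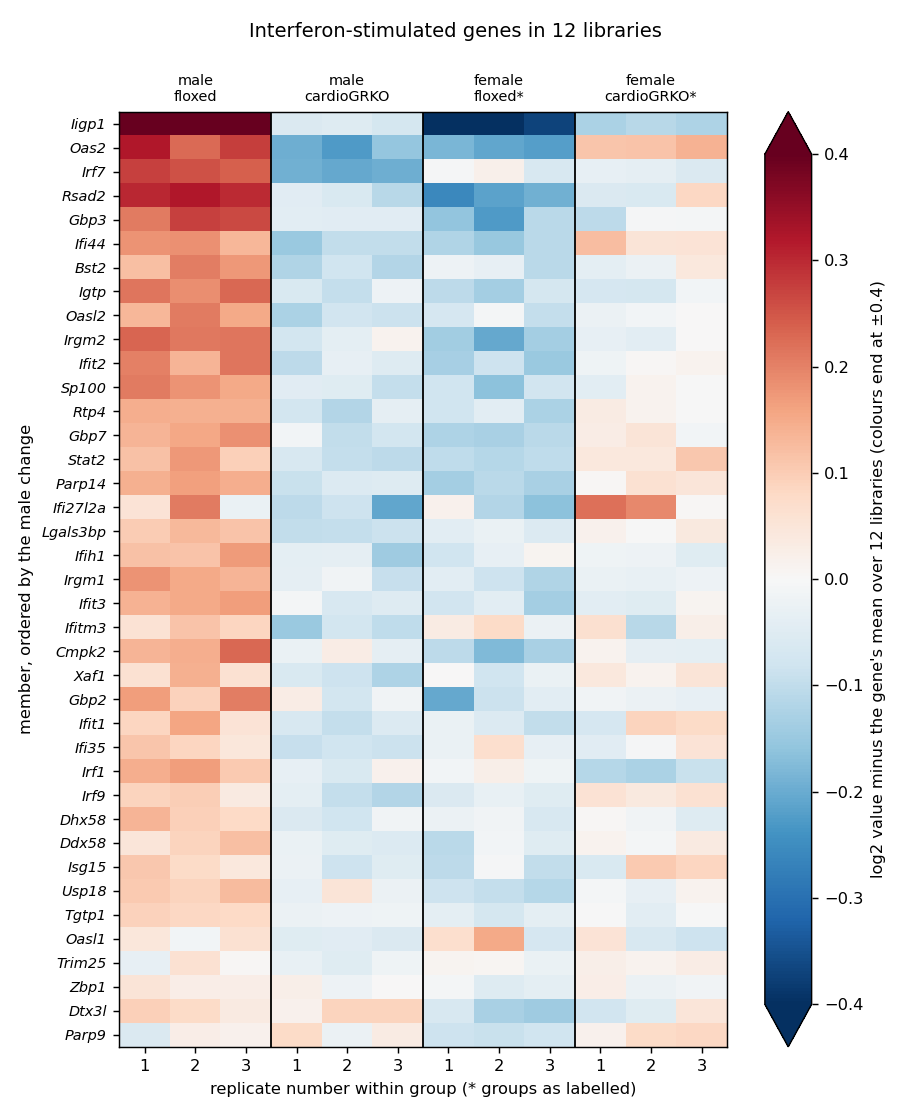
Log2 value of each member (rows) in each library (columns, grouped) minus that gene's mean over the 12 libraries, in colour; groups with an asterisk are named as labelled, and values beyond ±0.4 take the end colours. The 3 male floxed columns are red for nearly all members, with 37, 38 and 38 of 39 above their mean, against 1 to 6 in the libraries of male cardioGRKO and of female floxed.

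The other genes of the pathway were read from lists drawn up beside the members, also with earlier results of these data known. No ligand could be tested, since 0 of 17 interferon genes reached the filter of log2 of 10 (3.32) in 3 libraries. Of these, 9 were listed at 0 in all libraries and the other 8 ranged from -2.205 to 0.63, among them Ifnb1 and Ifng. Of the 6 receptor chains 1 fell and 0 rose in males, where 14.6% of all genes tested fell. The chains of the type I receptor, Ifnar1 and Ifnar2, stood at -0.026 and 0.033 (limma adjusted p = 0.46 and 0.43), and Ifngr1, the ligand-binding chain for interferon gamma, fell by 0.088. Under the female labels Ifngr2 rose by 0.084, as did 15.2% of all genes tested, and the other 5 were not called.

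Of the Janus kinases and other STATs listed here, 3 of 9 fell in males and 0 rose, against 14.6% and 12.8% of all genes tested. These were Stat3 (0.14), Jak3 (0.16) and Jak1 (0.058). Under the female labels Stat3, Jak3 and Tyk2 fell by 0.13, 0.12 and 0.096, and 0 of the 9 rose. Of all genes tested 14% fell and 15.2% rose under these labels. Stat3, which serves cytokines of the interleukin 6 family, and Jak3 thus fell in both sexes as labelled. A fall in both sexes was called for 1.69% of all genes tested. With the female labels exchanged Stat3 and Jak3 would fall in males and rise in females.

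Sensors, adaptors and kinases upstream of interferon production were called lower in 3 of 20 cases and higher in 0 in males, close to the 14.6% of all genes tested that were lower. In females as labelled 2 were lower and 1 higher, against 14% and 15.2% of all genes tested. Mavs, the mitochondrial adaptor of RIG-I and MDA5, fell by 0.12 in males and rose by 0.080 in females, and Irf2, an antagonist of Irf1, fell by 0.13 and 0.086. Irf3, which starts interferon transcription, was at 0.012 in males and fell by 0.13 in females. Among negative regulators 4 of 17 fell and 0 rose in males, against the same 14.6% and 12.8%, led by the phosphatase Ptpn11 (-0.37, limma adjusted p = 2.2e-09), and Socs1, the classical feedback inhibitor of Janus kinases, stood at 0.048 without a call (adjusted p = 0.15). Under the female labels 5 of 17 were higher and 1 lower, against 15.2% and 14% of all genes tested. Ptpn11 rose there by 0.20, and Irf2bp2, a corepressor, fell by 0.28.

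Of a further 66 tested interferon-stimulated genes outside the members, 40 fell and 0 rose in males, against 14.6% and 12.8% of all genes tested, with a median of -0.10. In females as labelled 16 rose and 2 fell, against 15.2% and 14%, with a median of 0.043, and 48 were not called. In males Ly6a, a marker of stem and endothelial cells also known as Sca-1, fell by 0.42, Nampt, an enzyme of NAD synthesis, by 0.30, Ly6e, which restricts virus entry, by 0.30 and Gbp4 by 0.35. In females as labelled Nampt rose by 0.39, Ly6e by 0.18, Ube2l6, the conjugating enzyme of ISG15, by 0.28 and Ifi203, a nucleic acid sensor of the HIN-200 family, by 0.16. The fit without the 2 libraries labelled female floxed that hold Krt12 leaves 1 library on that side. Its calls among the 66 are therefore not read. Requiring more than 1.2-fold left 1 male fall and 1 female rise among the 66. By value, without a test, 7 of the 66 and 222 of the 14721 genes tested were lower by more than this in males, and 0 and 263 higher. In females as labelled 2 and 136 were higher, and 1 and 267 lower.

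Markers of some cell types moved with the members and those of others against them or not at all, in lists drawn up for this purpose. Their part in the result was not tested. Of all genes tested 14.6% were called lower and 12.8% higher in males, and 15.2% higher and 14% lower in females as labelled. Endothelial markers fell in 12 of 14 cases and rose in 1 in males, with a median of -0.16, and rose in 7 and fell in 2 in females as labelled, with a median of 0.062. Their summed linear level was 89577 to 90242 in male floxed, 77960 to 78671 in male cardioGRKO, 76651 to 79620 in female floxed and 83369 to 83972 in female cardioGRKO libraries as labelled. Male floxed was thus highest in these markers as in the members, and female cardioGRKO stood between it and the other 2 groups. This was not particular to endothelial markers. The summed cardiomyocyte markers were also highest in male floxed, at 2969460 to 3037841, against 2767956 to 2800573 in male cardioGRKO libraries. They were 2780433 to 2882726 in female floxed and 2821342 to 2860925 in female cardioGRKO libraries as labelled. Their male median was -0.15. Atrial markers were lowest in male floxed and highest in male cardioGRKO libraries, with sums of 32110 to 32555, 141278 to 142054, 111199 to 114796 and 53864 to 54872 in the same 4 groups. They rose in 9 of 10 cases in males and fell in 10 of 10 in females as labelled.

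Immune cell markers differed by cell type. The shares of all genes tested were again 14.6% lower and 12.8% higher in males, and 15.2% higher and 14% lower in females as labelled. Macrophage and monocyte markers were called higher in 1 and lower in 1 of 14 in males, with summed levels of 14382 to 14484 in floxed and 14523 to 15114 in cardioGRKO libraries. Under the female labels 4 were higher and 2 lower, with sums of 12993 to 13380 and 14118 to 14343. Of the dendritic cell markers 1 of 6 fell in males, and this was Bst2, itself a member. T and NK cell markers were called in 0 of 4 cases in males and were higher in 2 of 4 in females as labelled. Neutrophil markers were called in 0 of 3 cases in males and were higher in 2 of 3 in females as labelled. B cell markers rose in 5 of 5 cases in males and in 3 of 5 in females as labelled, against the direction of the members in males, with summed levels of 477 to 501 in male floxed and 664 to 670 in male cardioGRKO libraries. Fibroblast markers rose in 9 of 11 cases in males, smooth muscle and pericyte markers fell in 7 of 10 and rose in 1, and general cardiomyocyte markers fell in 10 of 15 and rose in 2. In females as labelled these 3 lists had 1 higher and 5 lower, 3 and 4, and 6 and 2. Markers of stratified epithelium fell in 1 of 12 cases in males (Dsp) and in 11 of 12 in females as labelled, with no overlap of libraries in 4. Their sums were 43500 and 59824 in female floxed 1 and 2, the libraries that hold Krt12. They were 24700 in female floxed 3 and 24683 to 24960 in female cardioGRKO libraries as labelled. None of the listed markers found in the table was at 0 in all libraries.

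**Figure D4:**
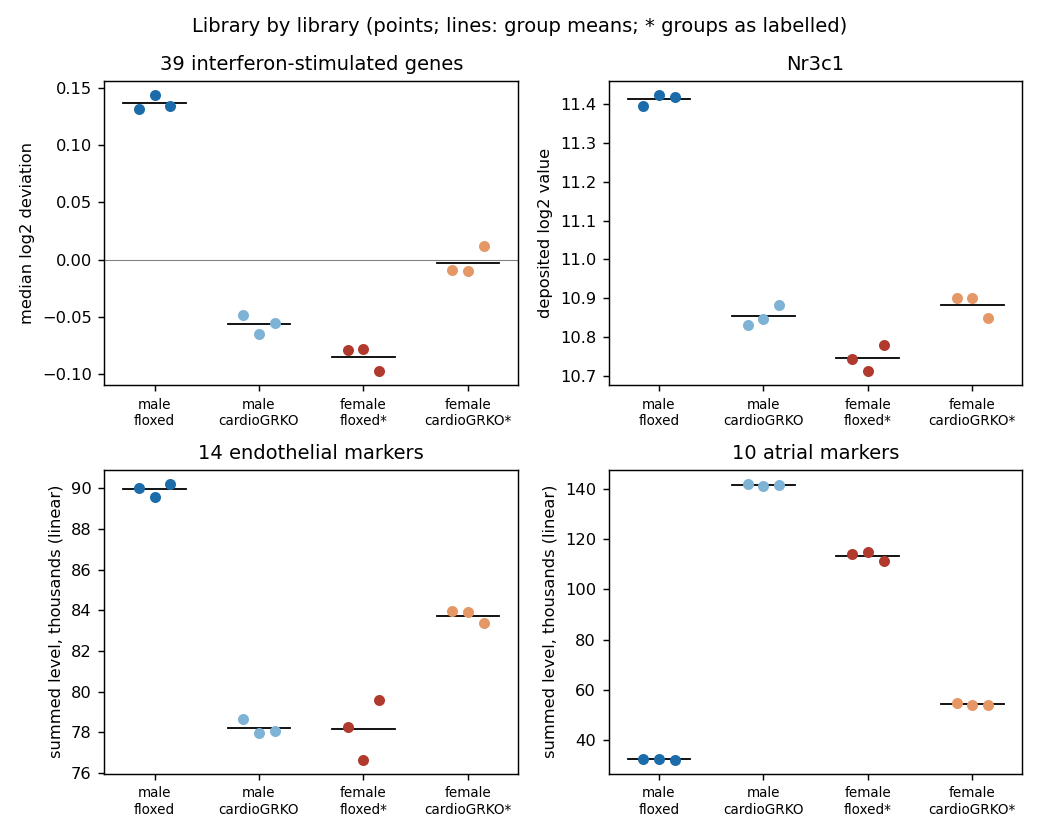
Top left, median over the 39 members of the log2 deviation from each gene's mean; top right, Nr3c1 on the deposited log2 scale; bottom, summed linear levels of 14 endothelial and 10 atrial markers. Each point is a library and each line a group mean; vertical axes do not start at 0, and groups with an asterisk are named as labelled. Male floxed libraries are highest in the first 3 panels and lowest in atrial markers, at 32110 to 32555.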

How the data were processed

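RNA-seq of 12 whole-heart libraries was analysed from 1 table of 24918 genes. Per the submitters' processing notes the authors used Trim Galore, TopHat2 (mm9), HTSeq and DESeq2. The deposited values are log2 values normalized by the authors, without versions. Whether low values were shrunk, as in a regularized log, is not given in the sources used here, so folds of low genes may be understated. Counts and depth were not recovered, and precision is the spread between libraries.

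Genes with at least log2 of 10 in at least 3 libraries were tested (14721). Symbols turned into dates (27) were restored by Entrez identifier. limma 3.58.1 in R 4.3.3 fitted the 4 group means to all 12 libraries, leaving 8 residual degrees of freedom, with an intensity trend. Adjusted p-values are two-sided, after Benjamini-Hochberg over all genes tested, called under 0.05. The fit was tested on simulated data. Members and lists were chosen with earlier results of these data known. Values in every library are given for Irf1, Irf7, Irf9, Stat2, Isg15, Usp18 and the 8 called members with the largest change per sex whose libraries do not overlap, and for the difference and floxed contrasts the 4 largest calls in each direction are named. From other lists up to 4 called genes, otherwise up to 2, and any receptor, kinase or STAT may be named. Dtx3l, Oasl1, Trim25 and Zbp1 were picked after their values were seen, as members without a call. Alternatives covered the filter, scaling, moderation, library weights, a minimum fold of 1.2, a replicate block, fits on 2 groups and leaving out libraries. Promoter windows were matched by Entrez identifier. 1 gene of the pathway is not reported here, and list counts leave it out.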

Additional observations from a re-analysis of the deposited data

Results flagged for a closer look

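The male and the female change by genotype differed by a test of the difference itself in 33 of the 39 members, each more negative in males (limma, females as labelled, male minus female, log2 scale, adjusted p under 0.05). Of all genes tested 17% were called more negative in males and 14.3% less negative. The GTPases gave -0.98 for Iigp1, -0.42 for Gbp3, -0.39 for Irgm2, -0.36 for Gbp7, -0.32 for Igtp, -0.26 each for Gbp2 and Irgm1 and -0.14 for Tgtp1. The transcription factors gave -0.43 for Irf7, -0.39 for Stat2 and -0.25 for Irf9. Effectors against viral RNA gave -0.79 for Oas2, -0.59 for Rsad2, -0.37 for Ifit2, -0.31 for Oasl2, -0.30 for Cmpk2, -0.26 for Ifit1 and -0.25 for Ifit3. RNA sensors gave -0.21 for Ifih1, -0.20 for Ddx58 and -0.17 for Dhx58, and the modifier genes -0.24 for Isg15 and -0.20 for Usp18. The remaining effectors gave -0.48 for Ifi44, -0.44 for Ifi27l2a, -0.38 for Parp14, -0.34 for Sp100, -0.32 each for Bst2 and Rtp4, -0.27 for Lgals3bp, -0.25 for Xaf1 and -0.16 each for Ifi35 and Ifitm3. The call for Ifitm3 was kept in 5 of 12 fits that leave out 1 library, and the other 32 calls were kept in all 12.

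Nr3c1 itself differed by -0.70 between the male and the female change (SE 0.034, adjusted p = 1.1e-10), with -0.56 in males and 0.14 in females as labelled. Every value here rests on the female labels. With the 2 female labels exchanged, an alternative added after seeing the data, 20 of the 39 differences were called more negative in males and 1 less negative. The shares of all genes tested were then 12.4% and 12.2%, and the difference of Nr3c1 was -0.42.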

How the results depend on the processing

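The minimum fold of 1.2 moved the counts most, to 3 male falls, 0 female rises and 0 falls, 6 differences between the sexes, 5 members lower in female than in male floxed libraries, and 0 higher and 0 lower between the cardioGRKO groups. Under the other alternatives, male falls stayed at 32 to 34 when 1 library was left out (median -0.21 to -0.19), the difference at 32 to 34 (median -0.28 to -0.26) and the floxed contrast at 33 to 35 (median -0.23 to -0.19), each with 0 calls in the other direction. Of the 34 male falls 32 were kept in every such fit, without Isg15 and Ifi27l2a. Female rises ranged from 16 to 18 with 1 or 2 falls (median 0.070 to 0.090), and 14 of 20 calls were kept in every such fit. Over all alternatives as labelled other than the minimum fold, 9 of the 20 were kept: Irf1, Irf9, Cmpk2, Gbp3 and Irgm2 were lost only without the 2 libraries with epithelial transcripts. The cardioGRKO contrast gave 10 to 13 higher and 0 to 2 lower (median 0.050 to 0.065). Without the 2 libraries with epithelial transcripts, 12 members rose and 0 fell in females, the female median was 0.099, that of the difference -0.29 and that of the floxed contrast -0.23, and the uncalled female Irf7 reversed to 0.021. With the female labels exchanged, the difference was lower for 20 members and higher for 1, against 12.4% and 12.2% of all genes tested, with a median of -0.12. Median centring gave medians of -0.21 in males, -0.27 for the difference and -0.23 for the floxed groups. Quantile normalization gave -0.28 for the difference and -0.21 for the floxed groups, and library weights -0.21 for the floxed groups. Robust moderation and the fit on the 2 groups compared each gave 2 lower members between the cardioGRKO groups. The replicate numbers did not pair the samples: deviations of same-numbered libraries correlated at 0.066, -0.056 and -0.031 in males and 0.093, -0.11 and 0.15 in females. With the replicate block 34 members fell in males and 17 rose in females, and the female rise of Usp18 was lost (adjusted p = 0.058).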

Other observations

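The members' spread within groups was like that of other genes at the same levels. Their median SD was 0.032 in male floxed, 0.032 in male cardioGRKO, 0.038 in female floxed and 0.029 in female cardioGRKO libraries as labelled, against 0.032, 0.029, 0.032 and 0.031 for all tested genes in the members' range of group means. The widest spread in 3 of the 4 groups was that of Ifi27l2a.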
